A study of Mus musculus with 36 samples.

Results

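Cytosolic ribosomal protein genes encode the proteins that, with ribosomal RNA, build the large (Rpl) and small (Rps) subunits of the ribosome. They were chosen by symbol alone: Rpl or Rps followed by a number, with an optional letter and further number, and the 4 symbols Rplp0, Rplp1, Rplp2 and Rpsa. The symbols matched 103 of 45281 probes and 69 of 30869 gene symbols on the array. A filter on dim probes, which asked for a signal over the median of the array in 3 or more arrays, left 90 probes of 63 genes: 32 of the large subunit, 28 of the small subunit and 3 of the stalk. Rpl6, Rpl14, Rpl17, Rpl39l, Rps20 and Rps23 did not pass, so they are in no test. Rps3a and Rps4y2 are the array's names for the genes now called Rps3a1 and Rps4l.

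Primary astrocyte cultures from C57B/6 mouse pups were treated with 100 nM corticosterone together with 500 nM RU486, with 100 nM corticosterone alone, with 500 nM RU486 alone, or with vehicle, each for 2, 4 or 6 h. Corticosterone is the main glucocorticoid of mice, and RU486, or mifepristone, blocks its receptor. RNA of each culture sample was measured on Illumina bead arrays, 3 arrays in each of the 12 groups. All groups were taken from mice aged P0-P2 and grown to near confluence in serum-containing medium, and the labels name the tissue as cortical in one field and as cortex or hippocampus in another. Whether replicates were separate cultures is not in the labels, so the p-values reflect array-to-array spread alone, and that spread may be technical.

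The small subunit decodes the messenger RNA, the large subunit joins amino acids, and the stalk proteins Rplp0, Rplp1 and Rplp2 recruit elongation factors to the large subunit. Messages of ribosomal proteins are among the most abundant of most cells. They start with a run of pyrimidines, the TOP motif, through which the kinase complex mTORC1 and the RNA-binding protein LARP1 adjust their translation, so their use can change with no change in their level. Rplp0, Rpl13a and Rps18 are often taken as reference genes in quantitative PCR.

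Part of the genes show such a run at the annotated start. RefSeq promoter windows (GRCm38.p6) were found for 53 of the 69 genes. Counted on the transcribed strand from 15 bases before to 20 bases after the annotated start, the letters CTTTC stood in 24.5% of these genes, against 5.51% of 27025 genes, and CTCTTT in 13.2%, against 1.49%. CTCTTT followed by C holds both motifs. On either strand from 250 bases before to 50 after the start, CCGGAAG, a core that ETS-family factors bind, stood in 45.3% of the ribosomal protein genes and 9.93% of all genes. ATGGCGGC, the core of the YY1 motif, stood in 7.55% and 2.6%. A gene was counted once if any of its windows held the letters. TATAAA, between 45 and 10 bases before the start, stood in 1.89% and 2.68%. A match is a description of these letters and not a site in use. The sequences below run from 30 bases before to 20 bases after an annotated start of the members that the results turn on or that hold the pyrimidine motif. RefSeq gave 63 windows for the 53 genes, 1 is shown for each, and those of Rpl38 and Rps27l lie inside the annotated gene, downstream of its first base. Capitals mark 1 copy of CTTTC or CTCTTT in the first 6, where further motif copies are left in lower case, and CCGGAAG in Rps27l.
Rplp2 (chr7:141447621-141447670, plus strand): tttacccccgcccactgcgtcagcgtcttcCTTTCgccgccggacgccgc
Rps6 (chr4:86857348-86857397, minus strand): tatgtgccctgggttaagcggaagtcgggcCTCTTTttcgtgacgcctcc
Rpl28 (chr7:4792935-4792984, plus strand): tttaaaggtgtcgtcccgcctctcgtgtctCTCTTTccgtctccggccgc
Rpl38 (chr11:114668550-114668599, plus strand): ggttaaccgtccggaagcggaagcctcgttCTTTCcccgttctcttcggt
Rps10 (chr17:27635225-27635274, minus strand): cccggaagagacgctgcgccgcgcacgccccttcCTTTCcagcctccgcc
Rpl35 (chr2:39005112-39005161, minus strand): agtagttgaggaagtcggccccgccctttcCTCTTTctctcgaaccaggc
Rps27l (chr9:66946056-66946105, plus strand): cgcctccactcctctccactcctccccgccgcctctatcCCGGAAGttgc
Rplp0 (chr5:115559437-115559486, plus strand): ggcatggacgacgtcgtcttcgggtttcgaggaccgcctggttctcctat
Rpl39 (chrX:37085203-37085252, minus strand): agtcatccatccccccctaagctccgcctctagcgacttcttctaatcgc
None of these motifs was found in the windows shown for Rplp0 and Rpl39, which says only that the letters are not there.

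Ribosomal protein messages were among the brightest on the arrays. Over the 63 genes the median of the mean log2 intensity was 13.42 (range 6.75 to 15.25), against 7.83 for the 18935 genes tested, and 15 of the 100 brightest probes belonged to 13 of these genes. Levels of different probes are not compared here as amounts of RNA, since each probe binds with its own strength. Rpl41, which encodes the smallest protein of the large subunit, had the brightest probe. At the other end were 7 genes under 9, among them Rps18 at 6.75, Rpl3l, the striated-muscle paralog of Rpl3, at 6.82 and Rpsa, a small-subunit protein also known as the laminin receptor, at 7.27. The reference gene Rps18 was therefore read at the dim end by both of its probes (6.63 and 6.75).

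**Figure D1:**
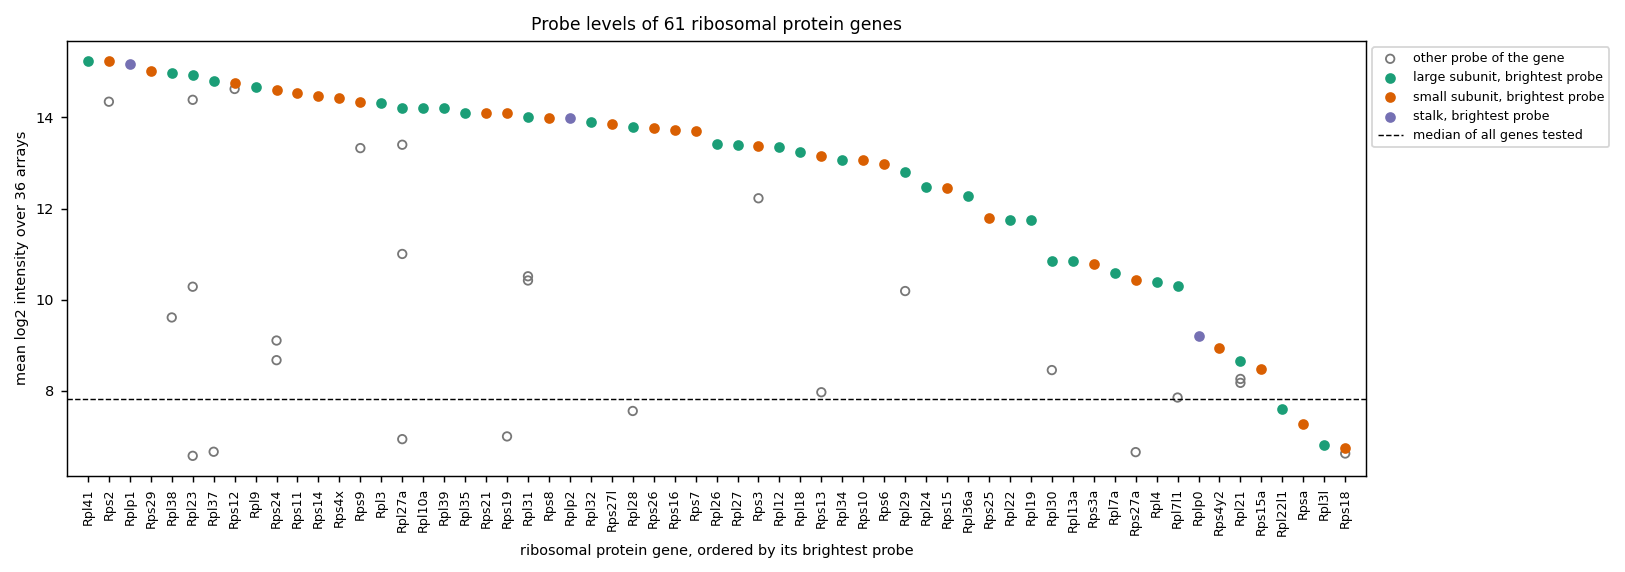
Mean log2 intensity over 36 arrays (y axis) of the probes of 61 of the 63 ribosomal protein genes that passed the filter, with genes on the x axis ordered by their brightest probe. Filled points are the probes used for each gene, coloured by subunit, open points are other probes of the same gene, and the dashed line is the median of all genes tested at 7.83; 43 of the 61 filled points lie above 12.

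How bright a gene appeared depended on the probe. Of the 63 genes, 20 had several probes past the filter, and for 8 of them the probes differed by more than 4 on the log2 scale. Rpl23, a large-subunit protein, had 4 probes with mean levels between 6.57 and 14.94. Rpl37 had 2 probes at 6.66 and 14.81. Rpl27a had 4 probes between 6.94 and 14.21, and Rps19, which is mutated in the inherited anaemia of Diamond and Blackfan, had 2 that differed by 7.09. By contrast, the 2 probes of Rps12 lay within 0.14 of each other. The brightest probe stood for its gene in the tests that follow.

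The cultures carried the astrocyte label in their bright markers: Slc1a3 (14.87), Gja1 (13.70), Gfap (13.42), Aqp4 (13.36) and Aldoc (13.26) were all above the array median on 36 of 36 arrays. S100b, with 1 probe, was above it on 1 array. Of 5 microglial markers, 4 were measured above the median on 35 or 36 arrays, at levels between 7.76 and 8.34, and Itgam was above it on none. Of the neuronal markers, Map2 and Syn1 were above it on all 36 arrays and Tubb3 on 28, while Snap25 was above it on 0. Of the oligodendrocyte markers, Cnp was above it on 36, Mbp on 35 and Mag on 34, while Mog was above it on 0. The fibroblast genes Col1a1, Col1a2 and Dcn were above it on 36 arrays and Lum on 0. The endothelial genes Cdh5, Pecam1, Kdr and Cldn5 were above it on 26, 12, 6 and 1. The glucocorticoid targets Fkbp5, Fam107a, Sgk1, Per1 and Tsc22d3, which check the treatment, were all higher with corticosterone than with vehicle, by a median of 2.20 (log2, mean of times).

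2 arrays stood apart. On replicate 3 of both compounds at 6 h, 14 of the 63 genes lay more than 1 below their median over the other 34 arrays, and 3 lay more than 1 above. On replicate 1 of vehicle at 6 h, 25 lay more than 1 below and 8 more than 1 above. The share of ribosomal protein genes beyond 1 in either direction was 27% on the both-compounds array and 52.4% on the vehicle array, against 16.4% and 39.4% of all genes. The 14 low genes on the both-compounds array were all low on the vehicle array as well. Rpl18, a large-subunit protein, lay at -5.22 relative to its median on the both-compounds array and at -5.78 on the vehicle array. Rpl7a, of the large subunit, lay at -4.13 on the both-compounds array and -3.94 on the vehicle array. Rps6, the substrate of the S6 kinases, lay at -2.96 and -4.42, and Rps7, of the small subunit, at -3.27 and -5.39, in the same order of arrays. In the opposite direction, Rpl22l1, the paralog of Rpl22, was 1.11 above its median on the both-compounds array and 2.5 above on the vehicle array. Rplp0 was 0.70 and 1.61 above. The counts of calls below are therefore given for all 36 arrays and for 34 arrays without these 2, and a tested difference with no set named comes from all 36.

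**Figure D2:**
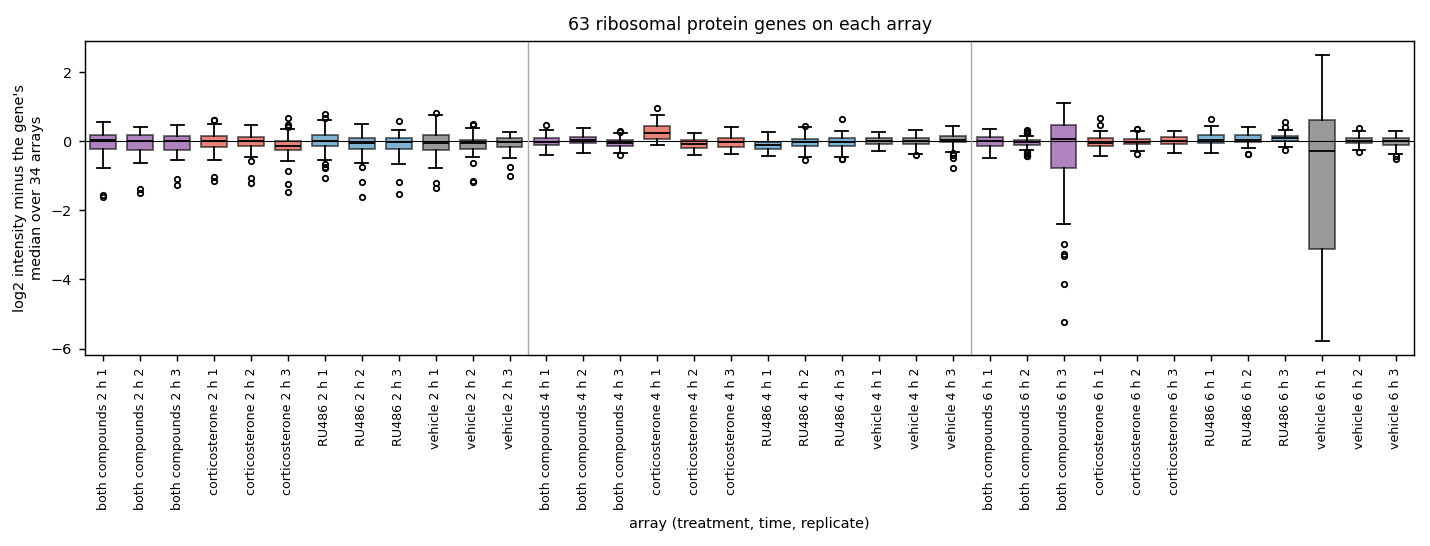
Log2 intensity of 63 ribosomal protein genes minus each gene's median over 34 arrays (y axis), as 1 box per array (x axis: treatment, time and replicate; box, quartiles; line, median; whiskers, farthest value within 1.5 box lengths; points beyond). Vehicle 6 h replicate 1 spans -5.78 to 2.5 and both compounds 6 h replicate 3 spans -5.22 to 1.11, while the median of corticosterone 4 h replicate 1 lies at 0.24.

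Among the 34 arrays, replicate 1 of corticosterone at 4 h was the highest: its median ribosomal protein gene lay 0.24 above its own median, while the other 33 arrays had medians between -0.12 and 0.09. This was seen after the values were examined, and the comparisons that use the 4 h corticosterone group are also given without it, on 33 arrays. At 2 h, replicate 1 of RU486, both compounds and vehicle had 4.55%, 2.65% and 2.56% of all genes more than 1 from their median. The next highest share among the 34 arrays was 0.90%. For ribosomal protein genes these 3 arrays had 1.59%, 3.17% and 3.17%. They were kept, and leaving out all 3 together was not tested. In cultures measured in bulk, fewer cells of a type and less RNA per cell cannot be told apart.

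Over the 34 arrays, ribosomal protein genes varied about as much as all genes, and the bright ones less than other bright genes. The SD of the 12 group means had a median of 0.149 over the 63 genes, 0.160 over all genes and 0.179 over the 1887 genes that are the brightest among non-members. The SD between replicates within a group had medians of 0.133, 0.146 and 0.159 in the same order. For the 45 ribosomal protein genes above 12 the medians were 0.131 for the group means and 0.123 within groups. With all 36 arrays the within-group SD had a median of 0.297 for ribosomal protein genes and 0.233 for all genes. The narrowest group means belonged to Rps29, Rpl37, Rpl35 and Rplp1, with SDs between 0.0557 and 0.0648. Their probes lay at percentiles 99.94, 99.88, 99.70 and 99.98 of all probes, on arrays already quantile-normalized. Whether the top of the scale narrowed these SDs was not tested, so they are not read as stable expression. Among the widest were Rps3a (0.69), Rpl39 (0.32) and Rpl26 (0.32), which differed between the times.

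The widest differences among the ribosomal protein genes lay between 2 h and the later times. Tested over all treatments together, a comparison added after the values were seen, 21 of 63 genes passed at 4 h against 2 h (14 higher and 7 lower, limma with Benjamini-Hochberg adjustment over all genes, threshold 0.05), beside 37.7% of all genes (19.1% higher and 18.6% lower). At 6 h against 2 h, 22 passed (16 higher and 6 lower), beside 45.5% of all genes (25.7% higher and 19.9% lower). On 34 arrays 43 passed at 4 h (23 higher and 20 lower), beside 61.6% (29.4% higher and 32.2% lower), and 39 at 6 h (21 higher and 18 lower), beside 58.4% (27.1% higher and 31.3% lower). The share of ribosomal protein genes that passed was 33.3% at 4 h and 34.9% at 6 h on 36 arrays, below that of all genes, and 68.3% and 61.9% on 34 arrays, above it. The medians over the 63 genes were -0.01 at 4 h and -0.03 at 6 h, both relative to 2 h, and -0.02 and -0.01 over all genes. Between 6 h and 4 h no gene of the 63 passed on 36 or 34 arrays, beside 0.0317% and 0.359% of all genes. On each set 5 of the 63 had an unadjusted p under 0.05. Here and below, shares of all genes are at the adjusted threshold. For counts at an unadjusted p the share of all genes is not given, so they are not read as an excess. Each time was measured in its own groups and the labels name no batch, so time and any handling that went with it cannot be told apart.

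Rps3a, a small-subunit protein near the mRNA exit, had the largest difference of the 63 at 6 h against 2 h on 36 arrays. At 2 h its log2 intensities were 9.45, 9.64 and 9.90 with both compounds, 9.86, 9.93 and 9.78 with corticosterone, 10.26, 9.82 and 9.82 with RU486, and 9.80, 9.83 and 10.27 with vehicle. At 4 h they were 11.22, 11.39 and 11.19 with both compounds, 11.50, 10.82 and 10.81 with corticosterone, 10.97, 11.45 and 11.03 with RU486, and 10.92, 10.80 and 11.44 with vehicle. Every 2 h array lay below every 4 h array, whatever the treatment. At 6 h the values were 11.18, 11.25 and 11.91 with both compounds, 11.67, 11.26 and 11.30 with corticosterone, 11.44, 11.21 and 11.57 with RU486, and 11.02, 11.39 and 11.30 with vehicle. These too lay above all 2 h arrays, the 2 arrays that stood apart included. The difference was 1.27 (SE 0.10, adjusted p = 1.21e-09 by limma) at 4 h and 1.51 (SE 0.10, adjusted p = 2.74e-11) at 6 h, and it passed in each of the 4 treatments on all 36 arrays. The 6 h difference was 1.48 (SE 0.10) on 34 arrays. On 34 arrays, 2 genes of 63 (3.17%), Rps3a among them, had all later arrays above the 2 h arrays, and none had them all below. Over all genes the share with the later arrays all above was 2.63%, and with them all below 0.813%.

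Rpl39, which lines the exit tunnel of the large subunit, and Rpl26, also of the large subunit, rose by less. Rpl39 was higher at 4 h than at 2 h by 0.60 (SE 0.07, adjusted p = 1.51e-07) and at 6 h by 0.70 (SE 0.07, adjusted p = 8.19e-09), or 0.63 (SE 0.06) on 34 arrays. Within single treatments on 34 arrays, its step at 4 h lay between 0.48 and 0.75. Rpl26 was higher by 0.54 (SE 0.09, adjusted p = 3.30e-05) at 4 h and by 0.71 (SE 0.09, adjusted p = 5.21e-07) at 6 h, or 0.66 (SE 0.07) on 34 arrays. Its steps within treatments on 34 arrays lay between 0.50 and 0.64 at 4 h. In the other direction, Rpl7l1, the paralog of Rpl7, was lower at 4 h (log2 difference -0.52, SE 0.20, adjusted p = 0.0386) and had a difference of -0.77 (SE 0.20, adjusted p = 0.00279) at 6 h. Without the outlying arrays its 6 h difference was -0.47 (SE 0.06, adjusted p = 2.62e-07). Rpl41 fell by 0.17 at 4 h (adjusted p = 0.00261).

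**Figure D3:**
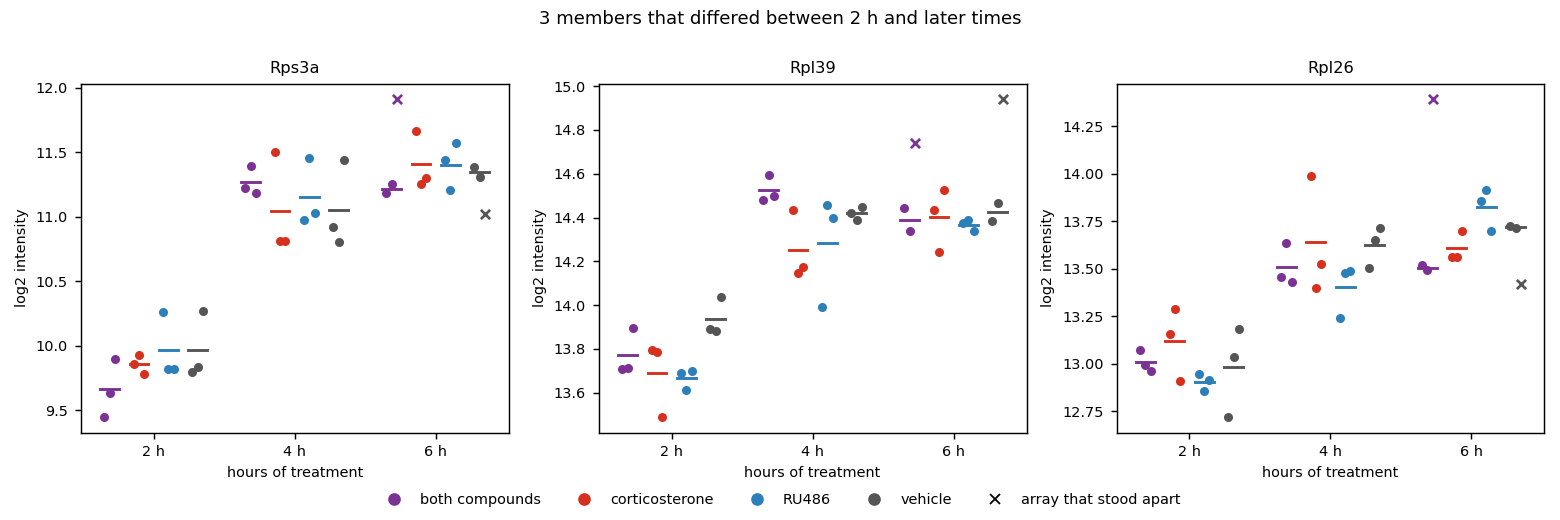
Log2 intensity (y axis) of Rps3a, Rpl39 and Rpl26 by hours of treatment (x axis). Points are arrays, short lines are group means over the 34 arrays, crosses are the 2 arrays that stood apart, and colours are treatments; the 2 h arrays of Rps3a (9.45 to 10.27) lie below all its other points. The y axes do not start at 0.

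The step was not shared by all probes of a gene. With each probe tested separately on 34 arrays, 13 genes that passed had other probes, and 9 of these 17 probes passed in the same direction. On 36 arrays it was 3 of 8 probes of 5 genes. On those 34 arrays both probes of Rps3, a small-subunit protein at the mRNA entry, were higher at 4 h than at 2 h, by 0.22 (SE 0.05) for the brighter and 0.95 (SE 0.06) for the dimmer, but on 36 arrays neither passed (adjusted p = 0.541 and 0.0567). For Rpl28 on 34 arrays the brighter was higher by 0.26 (SE 0.05) and the dimmer lower, with a difference of -0.33 (SE 0.08). Rps3a, Rpl39 and Rpl26 had a single probe each past the filter.

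In vehicle cultures alone, 7 of 63 genes differed between 2, 4 and 6 h (limma F test), beside 10.5% of all genes, among them Rps3a (adjusted p = 0.00107), Rpl39 (0.00723), Rpl26 (0.0211), Rpl32 (0.0233), Rpl12 (0.0446) and Rpl7l1 (0.0491). Without the 2 arrays 12 passed, beside 16.5%. The vehicle array that stood apart weighed on this count: without replicate 2 or 3 of vehicle at 6 h, which leaves that array as 1 of 2, the count was 38 and 42. Without any 1 of the vehicle arrays at 2 h or 4 h it was between 2 and 4. The shares of all genes in these fits are not given, so the changes are not read as particular to ribosomal protein genes.

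Corticosterone alone left the ribosomal protein genes without a call. Averaged over the times, none of 63 passed against vehicle in limma, beside 2.96% of all genes, and 3 of the 63 had an unadjusted p under 0.05. The differences ran from -0.21 (Rpsa, SE 0.11, adjusted p = 0.373) to 0.62 (Rpl18, SE 0.59, adjusted p = 0.638), with a median of 0.10, against -0.03 over all genes. The top value rested on the vehicle array that stood apart, and on 34 arrays the difference of Rpl18 was -0.03 (SE 0.07). Without the 2 arrays the 63 differences ran from -0.17 to 0.33 with a median of 0.01. For 62 of the 63 genes the 95% interval then lay within 0.5 of 0 on the log2 scale, and the median interval reached 0.14 to either side.

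By time, no gene of the 63 passed at 2 h, 4 h or 6 h on 36 arrays, beside 0.121%, 0.829% and 1.01% of all genes. At an unadjusted p under 0.05 there were 0, 1 and 20 of the 63, without a like share of all genes. On 34 arrays none passed at 2 h or 6 h, beside 0.676% and 1.56% of all genes, and 3 and 1 had an unadjusted p under 0.05. Leaving out replicate 2 or 3 of vehicle at 6 h in place of the outlying array gave 23 and 27 calls, since that array was then 1 of 2. The share of all genes called in these fits is not given, and 39.4% of all genes lay beyond 1 on that array. The counts are therefore not read as particular to ribosomal protein genes. The corticosterone difference itself was also tested for a change between 2 h and 6 h. No gene of the 63 passed, beside 0.0581% of all genes, and 0 had an unadjusted p under 0.05. The highest value there was that of Rpl18 (2.01, SE 1.44) and the lowest that of Rpl22l1 (-0.74, SE 0.53), and on 34 arrays these were 0.07 (SE 0.16) and 0.05 (SE 0.26). Again none of the 63 passed on 34 arrays, beside 0.217% of all genes, and 2 had an unadjusted p under 0.05.

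On 34 arrays 3 genes passed as higher with corticosterone, beside 12.4% of all genes (5.08% higher): Rps4y2, an S4 paralog (0.33, SE 0.10, adjusted p = 0.0309), Rpl3l (0.26, SE 0.05, adjusted p = 0.000632) and Rps24 (0.22, SE 0.07, adjusted p = 0.0461), a small-subunit protein. At 4 h, 4 passed as higher, beside 8.83% (3.23% higher): the same 3 and Rpl7l1. On 33 arrays, without replicate 1 of corticosterone at 4 h, Rpl3l alone passed, both over the times (beside 9.87% of all genes) and at 4 h (beside 3.54%). Rpl3l had 7.02, 7.05 and 6.80 with corticosterone at 2 h, against 6.80, 6.81 and 6.91 with vehicle. At 4 h it had 6.95, 6.80 and 7.05, against 6.53, 6.68 and 6.57, and at 6 h 6.96, 6.97 and 6.89, against 7.79, 6.60 and 6.64. The groups overlapped at 2 h, did not at 4 h, and at 6 h did so only through the vehicle array that stood apart. This probe lay near the middle of all probes on the array (percentile 51.0), where no background had been subtracted.

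**Figure D4:**
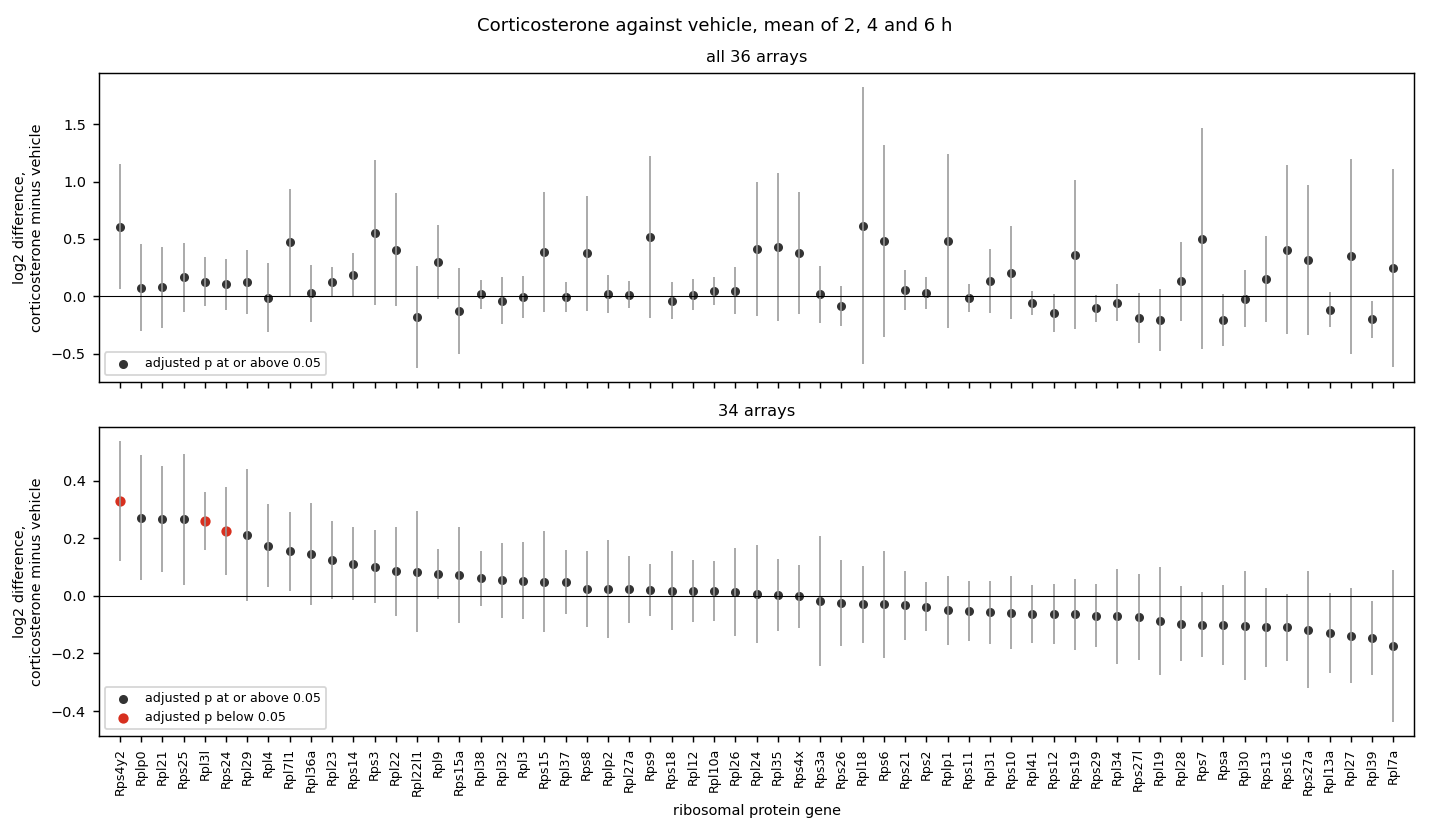
Log2 difference of 61 of the 63 ribosomal protein genes, corticosterone minus vehicle averaged over 2, 4 and 6 h (y axis), with its 95% interval from limma, for all 36 arrays (top) and 34 arrays (bottom); genes run along the x axis in the order of the bottom panel. No point passes in the top panel, and Rps4y2, Rpl3l and Rps24 pass in the bottom one. The y scales of the panels differ.

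The reference genes did not pass with corticosterone on 36 or 34 arrays. The difference over the times was -0.12 (SE 0.07) for Rpl13a on 36 arrays and -0.13 (SE 0.07) on 34. For Rps18 it was -0.04 (SE 0.08) on 36 arrays and 0.02 (SE 0.07) on 34, the opposite sign. The Rps18 probe was above the array median on only 15 of 36 arrays (percentile 47.5 of all probes). A small difference at that level says little about the Rps18 message. Rplp0 differed by 0.07 (SE 0.18, adjusted p = 0.866) on 36 arrays and by 0.27 (SE 0.11, adjusted p = 0.0945) on 34. Rpl13a, a large-subunit protein, had 10.65, 10.71 and 10.57 with corticosterone at 2 h, against 10.83, 10.41 and 10.74 with vehicle. At 4 h it had 11.07, 10.76 and 10.77, against 11.01, 11.05 and 11.09, and at 6 h 10.79, 10.85 and 11.02, against 10.97, 11.10 and 11.04. The groups overlapped at 2 h, at 4 h only through replicate 1 of corticosterone, and at 6 h only through the vehicle array that stood apart; all other corticosterone arrays at 4 and 6 h lay below the other vehicle arrays of their time. Over the treatments Rpl13a was higher at 6 h than at 2 h by 0.40 (SE 0.06) on 36 arrays and by 0.37 (SE 0.06) on 34. Rps6 averaged 13.27 ± 0.18 with corticosterone at 2 h and 13.18 ± 0.24 with vehicle (SD, n = 3 each), and 13.18 ± 0.14 with corticosterone and 13.25 ± 0.08 with vehicle at 4 h. At 6 h it had 13.15, 13.25 and 13.24 with corticosterone, against 8.75, 13.24 and 13.42 with vehicle, the first of these on the array that stood apart.

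Of the treatment comparisons over the times, adding RU486 to corticosterone gave the highest count, as it did for all genes. Averaged over the times, 5 of 63 genes passed against corticosterone alone (4 higher and 1 lower). That was a smaller share than the 12.9% of all genes that passed (7.35% higher and 5.5% lower). Higher were Rps27l, a paralog of Rps27 (0.42, SE 0.11, adjusted p = 0.00827), the stalk protein Rplp2 (0.40, SE 0.08, adjusted p = 0.00133), Rps12 (0.29, SE 0.08, adjusted p = 0.0151) and Rps26 (0.26, SE 0.09, adjusted p = 0.0442), both of the small subunit. Lower was Rps14, also of the small subunit (-0.28, SE 0.09, adjusted p = 0.0452). The median over the 63 genes was -0.06, and 0.01 over all genes. All 5 passed on 34 arrays too. Among markers of other cell types, 1 of 4 microglial and 1 of 3 neuronal genes were higher in the same comparison, and the median of 3 fibroblast genes was 0.58 with none past the threshold. Their part in the result was not tested. Rps27l and Rplp2 passed under every alternative run. Rps12 missed the threshold when arrays were centred on bright genes that are no members (adjusted p = 0.115, range over the alternatives 7.27e-07 to 0.115). Rps26 and Rps14 lost the call under 17 alternatives each, most of them leaving out 1 array.

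Rplp2 had 13.78, 14.21 and 14.40 with both compounds at 2 h, against 13.48, 13.78 and 13.82 with corticosterone. At 4 h the values were 14.30, 14.14 and 14.10, against 13.93, 13.98 and 13.95, and at 6 h 14.30, 14.30 and 14.46, against 13.78, 13.97 and 13.74. The groups overlapped at 2 h and were apart at 4 and 6 h, with both compounds higher. Rps27l had 14.07, 14.21 and 14.37 with both compounds at 2 h, against 13.66, 13.80 and 13.63 with corticosterone. At 4 h the values were 13.93, 14.01 and 13.98, against 13.85, 13.52 and 13.59, and at 6 h 14.12, 14.03 and 13.94, against 13.70, 13.52 and 13.63. Both compounds were higher on every array at every time.

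Rps12 had 14.73, 14.94 and 14.85 with both compounds at 2 h, against 14.57, 14.64 and 14.50 with corticosterone. At 4 h it had 14.86, 14.82 and 14.79, against 14.84, 14.57 and 14.58, and at 6 h 15.01, 14.84 and 15.33, against 14.57, 14.60 and 14.69. The groups were apart at 2 h and 6 h, and at 4 h overlapped through replicate 1 of corticosterone. The other Rps12 probe, of nearly the same brightness, differed by 0.12 (SE 0.05, adjusted p = 0.0819) on 34 arrays, where the probe used differed by 0.24 (SE 0.05). Rplp2, Rps27l and Rps26 had 1 probe each past the filter.

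By time, no gene of the 63 passed on 36 arrays at 2 h, 4 h or 6 h, beside 0.782%, 3.15% and 1.4% of all genes. At an unadjusted p under 0.05 there were 6, 5 and 9 of the 63, again without a like share of all genes. Without the 2 arrays 21 passed over the times (7 higher and 14 lower), beside 31.2% of all genes (15.7% higher and 15.5% lower), so the share of ribosomal protein genes (33.3%) was near that of all genes. The highest were Rps27l (0.43, SE 0.07), Rplp2 (0.38, SE 0.08) and Rpl27 (0.25, SE 0.08). The lowest were Rpl29 (-0.49, SE 0.11), Rplp0 (-0.48, SE 0.11) and Rpl21 (-0.40, SE 0.09), where Rpl29 and Rpl21 belong to the large subunit. Rpl27 had a difference of -0.11 (SE 0.41) on 36 arrays, the opposite sign. Of the 21, 17 also passed in the same direction on 33 arrays, among 21 calls (11 higher and 10 lower), beside 29.2% of all genes.

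At single times on 34 arrays, 7 passed at 2 h (5 higher and 2 lower, beside 10.3% of all genes, 6.22% higher and 4.06% lower), and 11 at 4 h, all of them lower (beside 18.2%, with 9.23% lower). At 6 h Rps27l alone passed (0.46, SE 0.14, adjusted p = 0.0499), beside 4.47% (2.64% higher). The count at 4 h depended on replicate 1 of corticosterone. On 33 arrays 7 passed at 4 h, 5 higher and 2 lower (beside 10.1%), and 2 of the 11 were among them, Rps15a and Rpl3l. Among the 5 higher were Rps27l (0.42), Rps26 (0.41), Rpl39 (0.36) and Rps16 (0.36).

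Rpl29 and Rplp0 show how much that array weighed. Rplp0 had 9.15, 9.20 and 9.08 with both compounds at 2 h, against 9.74, 9.35 and 9.52 with corticosterone. At 4 h it had 8.73, 8.86 and 8.78, against 9.81, 9.17 and 9.26, and at 6 h 8.78, 8.67 and 9.81, against 9.26, 9.16 and 9.01. Both compounds were lower on every array except the 6 h array that stood apart. At 4 h Rplp0 differed by -0.62 (SE 0.18, adjusted p = 0.0142) on 34 arrays and by -0.42 (SE 0.18, adjusted p = 0.143) on 33, and averaged over the times by -0.48 and -0.41 (SE 0.10, adjusted p = 0.00288). Rpl29 had 12.54, 12.52 and 12.41 with both compounds at 4 h, against 13.52, 12.98 and 13.02 with corticosterone. The groups did not overlap, and the difference was -0.68 (SE 0.18, adjusted p = 0.0105) on 34 arrays and -0.51 (SE 0.20, adjusted p = 0.0985) on 33. The dimmer Rpl29 probe differed by -0.05 (SE 0.07) over the times on 34 arrays. Over 6 such genes, none of 9 other probes passed in the same direction.

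**Figure D5:**
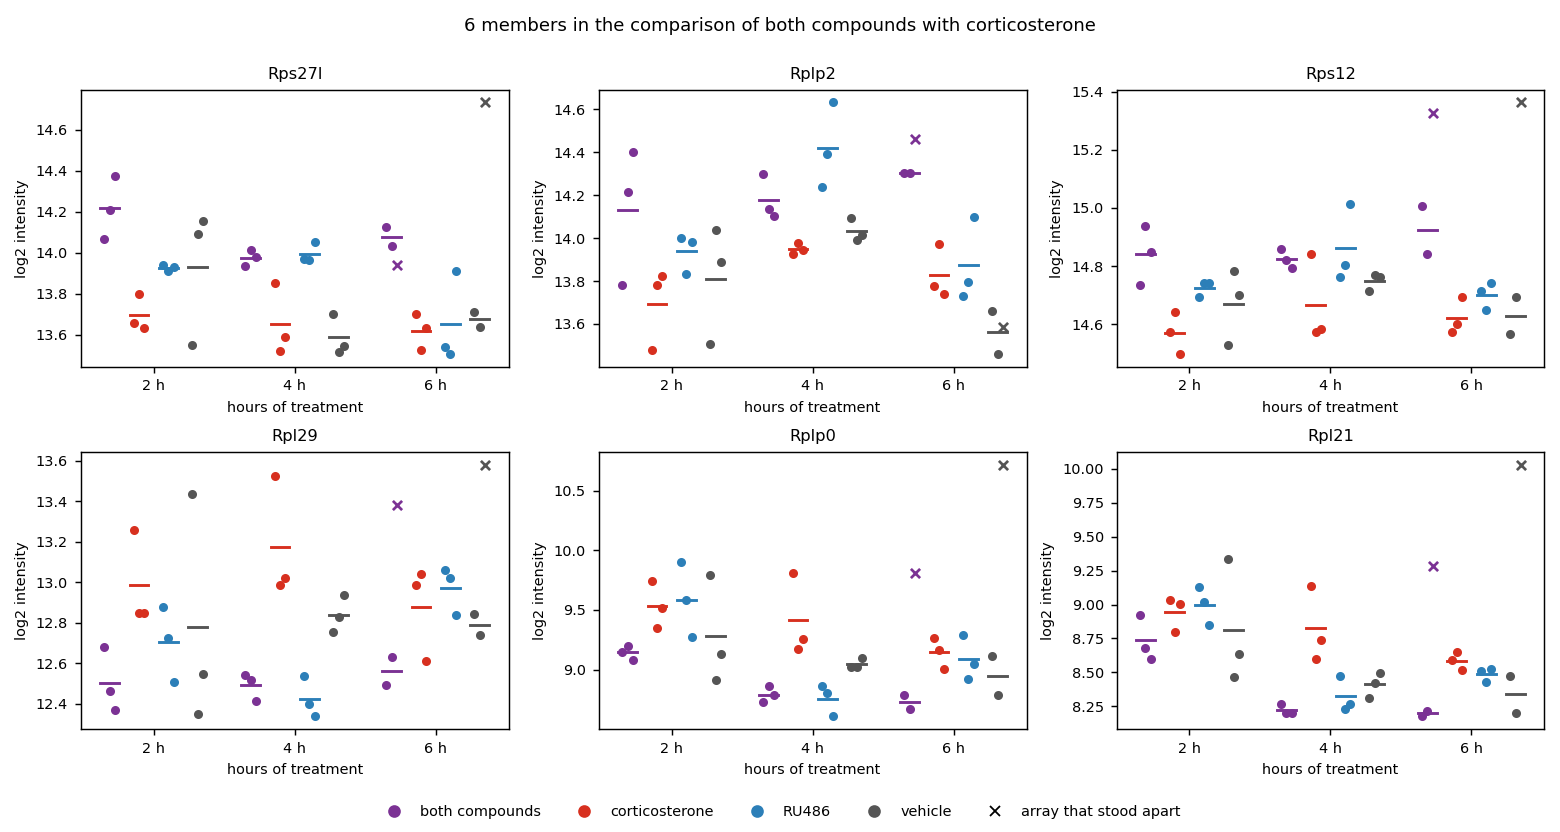
Log2 intensity (y axis) of Rps27l, Rplp2, Rps12, Rpl29, Rplp0 and Rpl21 by hours of treatment (x axis), for both compounds, corticosterone, RU486 and vehicle. Points are arrays, short lines are group means over the 34 arrays and crosses are the 2 arrays that stood apart; in the top row both compounds lie above corticosterone on average (by 0.42, 0.40 and 0.29 on all arrays), and in the bottom row below it (differences of -0.49, -0.48 and -0.40 on 34 arrays). The y axes do not start at 0.

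With RU486 alone no gene of the 63 passed against vehicle over the times in limma on 36 or 34 arrays, beside 0.0739% and 1.49% of all genes. At an unadjusted p under 0.05 there were 5 and 8 of the 63. The highest difference was that of Rpl18 (0.65, SE 0.59) and the lowest that of Rps15a (-0.35, SE 0.18). On 34 arrays Rps15a differed by -0.15 (SE 0.08) and Rpl18 by -0.000182 (SE 0.07). The 63 differences then lay between -0.16 and 0.28 with a median of -0.01, and all 63 intervals lay within 0.5 of 0. At 2 h none passed on 36 or 34 arrays, beside 0% and 3.18% of all genes, and at 6 h none, beside 0% on both. At an unadjusted p under 0.05 there were 1 and 6 of the 63 at 2 h, and 26 and 2 at 6 h. The share of all genes at that unadjusted threshold is not given. The 36-array comparison at 6 h holds the vehicle array that stood apart. At 4 h none of the 63 passed on 36 arrays, beside 0.00528% of all genes, and 4 passed as lower on 34 arrays, beside 4.01% of all genes (1.8% lower), among them Rpl24 (-0.52), Rpl12 (-0.35) and Rps2 (-0.34).

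Against vehicle, both compounds together gave 1 call over the times, Rplp2 (0.42, SE 0.08, adjusted p = 0.0148), beside 0.512% of all genes. It missed the threshold when arrays were centred on bright genes (adjusted p = 0.103), when only the groups compared entered the fit (0.151) and without replicate 3 of both compounds at 2 h (0.052). At 6 h Rplp2 had 14.30, 14.30 and 14.46 with both compounds, against 13.59, 13.66 and 13.46 with vehicle. The groups were far apart (0.79, SE 0.14, adjusted p = 0.0322), beside 0.0422% of all genes called. On 34 arrays the difference at 6 h was 0.74 (adjusted p = 0.137), and 5 genes passed over the times, beside 6.51% (3.82% higher and 2.69% lower): Rplp2 (0.40), Rps27l (0.36) and Rps12 (0.18) higher, Rpl3 (-0.26) and Rpl32 (-0.22) lower. These comparisons share their arrays with those above and are not independent of them.

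The interaction asked whether corticosterone acted otherwise in the presence of RU486, as (both minus RU486) minus (corticosterone minus vehicle) over the times. Rpl39 was the 1 call of 63 (0.37, SE 0.11, adjusted p = 0.0436), beside 5.97% of all genes (3.32% above 0). Rpl39 had 13.71, 13.71 and 13.90 with both compounds at 2 h, 13.79, 13.79 and 13.49 with corticosterone, 13.69, 13.61 and 13.70 with RU486 and 13.89, 13.88 and 14.04 with vehicle. The vehicle arrays were among the highest, with 1 array of both compounds level with them. At 4 h it had 14.48, 14.59 and 14.50 with both compounds, 14.44, 14.15 and 14.17 with corticosterone, 13.99, 14.46 and 14.40 with RU486 and 14.42, 14.39 and 14.45 with vehicle. Here both compounds were highest. At 6 h it had 14.44, 14.34 and 14.74 with both compounds, 14.44, 14.24 and 14.53 with corticosterone, 14.37, 14.39 and 14.34 with RU486 and 14.94, 14.38 and 14.47 with vehicle. The highest vehicle and both-compounds values are those of the 2 arrays that stood apart. The call was lost under 27 alternatives, and its adjusted p ranged from 0.00119 to 0.114. On 34 arrays 6 genes passed, beside 20.5% (10.7% above 0 and 9.8% below): Rps27l (0.31) and Rpl39 (0.27) above 0, and Rpl3l (-0.28), Rpl4 (-0.35), Rpl21 (-0.49) and Rplp0 (-0.53) below.

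Genes that work with the ribosome were compared from lists of textbook members. Of 17 measured translation factors and other TOP messages, none passed for corticosterone against vehicle, and 1 higher and 1 lower passed for both compounds against corticosterone (2 higher and 3 lower on 34 arrays). Beside these, 2.96% and 12.9% of all genes passed in the 2 comparisons on 36 arrays, and 12.4% and 31.2% on 34. On 34 arrays Eef1b2, which reloads elongation factor 1A, was higher with both compounds than with corticosterone by 0.67 (SE 0.11), and by 0.70 (SE 0.11) on 36. Eif3f, a subunit of initiation factor 3, was lower (-0.30, SE 0.07), with -0.28 (SE 0.09) on 36. Of 70 measured mitochondrial ribosomal protein genes, none passed for corticosterone, beside 2.96% of all genes, with a median of 0.06. For both compounds against corticosterone 6 higher and 5 lower passed, beside 12.9% of all genes, with a median of -0.04. On 34 arrays 3 were higher and 2 lower with corticosterone, beside 12.4%, and 13 higher and 20 lower with both compounds against it, beside 31.2%. At 4 h against 2 h, 9 of them were higher and 19 lower, beside 37.7% of all genes (19.1% higher and 18.6% lower), with a median of -0.13. Of the same 70 on 34 arrays, 12 were higher and 33 lower, beside 61.6% (29.4% higher and 32.2% lower).

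Of 17 measured ribosome biogenesis genes, none was higher and 1 was lower with corticosterone, beside 2.96% of all genes, and on 34 arrays 1 was higher and 2 lower, beside 12.4%. With both compounds against corticosterone 2 were higher and 3 lower, beside 12.9%, and on 34 arrays 3 and 5, beside 31.2%. On 34 arrays Nop2, a methyltransferase of ribosomal RNA, had a difference of -0.38 (SE 0.08, adjusted p = 0.00171) with corticosterone and was higher by 0.49 (SE 0.08) when RU486 was added. These were -0.46 (SE 0.12) and 0.59 (SE 0.12) on 36 arrays. Ubtf, a factor of ribosomal RNA transcription, had -0.38 (SE 0.10) and 0.38 (SE 0.10) on 34 arrays, but did not pass on 36 arrays (adjusted p = 0.923 and 0.609). Of 18 genes around mTORC1, 4 were higher and none lower with corticosterone, beside 2.96% of all genes. With both compounds against corticosterone 6 were lower and none higher, beside 12.9%. This list, like the others, was chosen with earlier results of these data known, so its counts are a description and not a test of mTORC1. On 34 arrays Sesn1 (0.82, SE 0.09), Klf15 (0.60, SE 0.07) and Ddit4 (0.57, SE 0.07), each known to restrain mTORC1, were higher with corticosterone, and with both compounds against corticosterone differed by -1.17, -0.50 and -0.60. In the same order of genes, the 36 arrays gave 0.65, 0.51 and 0.65 with corticosterone, and -0.99, -0.47 and -0.67 with both compounds against it. On 34 arrays 6 of the 18 were higher and 1 lower with corticosterone, beside 12.4%, and 3 were higher and 7 lower with both compounds against it, beside 31.2%. The median over the 18 for corticosterone was 0.19 on 36 arrays and 0.08 on 34.

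The mean level of the 63 genes, each centred on its own mean, was most like that of Ndufaf2 (Pearson r = 0.847 over 34 arrays), Ndufb3 (0.843), Mrps18c (0.836), Gm7117 (0.824) and 2010320M18Rik (0.824) among all genes that are no members. Its range over the 34 arrays ran from -0.13 (corticosterone at 2 h, replicate 3) to 0.28 (corticosterone at 4 h, replicate 1), with the next highest at 0.10. Without that corticosterone array the 5 values of r lay between 0.696 (Ndufb3) and 0.786 (Ndufaf2) over 33 arrays. These points share their arrays and their normalization.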

How the data were processed

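RNA of 36 astrocyte culture samples was measured on Illumina bead arrays and read with GenomeStudio, per the submitters' processing notes (no version is given in the sources used here). The values analysed are linear intensities deposited by the authors. From the values they were already quantile-normalized: sorted columns differed by at most 1.15% and array medians lay between 110.5 and 111.2. No background subtraction was seen. A further 72 columns of per-sample values matched no label and were not used.

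Intensities were taken to log2. The filter kept 28397 of 45281 probes, those over the array median in 3 or more arrays, and the brightest probe stood for each of 18935 genes. Of these, 11396 symbols were current in RefSeq, 3039 were updated and 4500 were kept as in the file. A model with 12 group means was fitted with limma 3.58.1 in R 4.3.3 (lmFit and eBayes), with Benjamini-Hochberg adjustment over all genes and a threshold of 0.05. The number of arrays, 3 a group, limits the precision. The script was tested on simulated data. Genes were named from the ribosomal protein rule: the extremes and calls of each comparison, the reference genes and the paralogs. Members and lists were chosen with earlier results of these data known. Leaving out the 2 arrays was planned. The comparisons of times over all treatments and the leaving out of corticosterone 4 h replicate 1 were added after seeing the data. Alternatives covered background, normalization, filter, probe choice, array weights, the replicate block and single arrays. Figures used matplotlib 3.10.9. Some genes are counted above but not reported here by name.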

Additional observations from a re-analysis of the deposited data

Results flagged for a closer look

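Rpl39, a large-subunit protein of the exit tunnel, was singled out because its corticosterone difference was not the same with and without RU486 by a test of the difference itself. The interaction was 0.37 on the log2 scale (SE 0.11, adjusted p = 0.0436 by limma) on 36 arrays and 0.27 (adjusted p = 0.0312) on 34. Over the alternatives run, its adjusted p by limma ranged from 0.00119 to 0.114, so the call did not hold under all of them. The part of the 2 arrays that stood apart and of time in this value was not tested beyond these fits.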

How the results depend on the processing

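Counts below are ribosomal protein genes that passed (probes, where each probe was tested), with the value on 36 arrays given in the report. The share of all genes that passed is not given beside them, and where it is given above it too changed with the setting. A change in a count is therefore not read as a result about ribosomal protein genes. The cause of each change was not tested unless fewer arrays or more probes are its own construction. The comparisons come in this order where several numbers follow: corticosterone against vehicle over the times, at 4 h and at 6 h, both against corticosterone over the times, at 2 h, 4 h and 6 h, both against vehicle, vehicle over time, interaction, 4 h against 2 h and 6 h against 2 h. Without the 2 arrays they were 3, 4, 0, 21, 7, 11, 1, 5, 12, 6, 43 and 39. Without corticosterone 4 h replicate 1 as well they were 1, 1, 0, 21, 9, 7, 2, 6, 14, 8, 43 and 40. With array weights they were 11, 19, 2, 29, 8, 36, 20, 15, 18, 21, 46 and 42, with 6 for RU486 against vehicle and 11 for 6 h against 4 h.

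Other choices combined with leaving out the 2 arrays gave, in the same order, 3, 5, 0, 24, 7, 13, 0, 4, 17, 8, 62 and 59 with all probes, 2, 2, 1, 19, 3, 8, 0, 3, 11, 4, 37 and 37 with normexp offset 16, 4, 5, 0, 21, 6, 10, 2, 5, 13, 6, 39 and 38 with cyclic loess, and 3, 4, 0, 21, 6, 9, 1, 4, 10, 6, 41 and 38 centred on bright genes. The replicate block without the 2 arrays gave 3, 5, 0, 21, 8, 12, 2, 10, 15, 7, 41 and 38, and 1 for RU486 against vehicle. On 36 arrays the replicate block gave 8 for both against corticosterone over the times and 1 at 6 h. Of 36 pairs of samples with the same number, 15 correlated above 0.1 (range -0.785 to 0.782). Both ends of the range are 6 h pairs of both compounds with vehicle, the groups that hold the 2 arrays that stood apart. More of the 15 were at 2 h than at 4 h or 6 h. The numbers were not taken to pair samples, and pairing at 2 h alone was not tested.

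On 36 arrays both against corticosterone over the times gave 3 with all probes, with no filter, with normexp offset 16 and centred on bright genes. All probes gave 34 for 6 h against 2 h. The interaction gave 0 with normexp offset 16, cyclic loess and centring on bright genes. Centring also gave 0 for both against vehicle and 3 for vehicle over time. With only the groups compared in the fit, there were 2 for corticosterone at 4 h, 1 and 15 for both against corticosterone at 2 h and 4 h, 0 for both against vehicle, 0 for vehicle over time and 39 for 4 h against 2 h.

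Leaving out 1 array at a time gave 18 to 22 for 4 h against 2 h, 19 to 33 for 6 h against 2 h, 3 to 7 for both against corticosterone over the times and 0 to 1 at 2 h, and 0 to 2 for both against vehicle. It gave 0 to 27 for corticosterone at 6 h, 0 to 1 over the times, 0 to 3 for the interaction and 2 to 42 for vehicle over time. It gave 0 to 0 for RU486 against vehicle, 6 h against 4 h, both against corticosterone at 4 h and 6 h, corticosterone at 2 h and 4 h, and the change of its difference from 2 h to 6 h. Without vehicle 6 h replicate 1 corticosterone over the times gave 1, and without replicates 2 and 3 corticosterone at 6 h gave 23 and 27.

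Rpl27, both against corticosterone over the times, was -0.11 on 36 arrays and turned sign to 0.25 without the 2 arrays, with all probes or the block (0.25) as well, and without both compounds 6 h replicate 3 alone. Leaving out 1 array at a time gave -0.298 to 0.2547. It was 0.31 on 33 arrays, 0.29 with array weights, and without the 2 arrays 0.26 with normexp or centring and 0.27 with loess. The interaction of Rpl4, -0.10 on 36 arrays, was 0.0031 centred on bright genes and ran from -0.2825 without vehicle 6 h replicate 1 to 0.0212 without replicate 3. Of the other values of 66 single-gene results, 1782 kept their direction and side of the threshold, 65 lost the threshold and 383 passed it.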
